A study of Homo sapiens with 8 samples.

Results

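The kinetochore is the protein structure that joins a chromosome to spindle microtubules, and the spindle checkpoint is the signal it sends to delay anaphase while any chromosome is unattached. The genes described here are 10 members of that machinery, taken by symbol from a table of 13471 human genes with RNA levels. By role they are 3 genes of the fibrous corona and its motors (CENPE, CENPF, KNTC1), 4 genes of the checkpoint (BUB1, BUB1B, TTK, MAD2L1) and 3 genes of the NDC80 complex, the main microtubule coupler (NDC80, NUF2, SPC25). Each had 1 entry in the table. In this pathway NDC80 complexes hold the microtubule, and the kinase TTK (also called MPS1) acts on the scaffold KNL1, where BUB1 and BUB1B (the BUBR1 protein) are recruited. MAD2L1 (the MAD2 protein) and BUB1B then enter the complex that inhibits CDC20, the activator of the anaphase-promoting complex. KNTC1 (the ROD protein) belongs to the complex that builds the corona and brings MAD1 and MAD2 to unattached kinetochores. Transcripts of many of these genes are known to accumulate late in the cell cycle.

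All libraries came from hTERT-RPE1, a human line from retinal pigment epithelium that carries telomerase to divide without limit, and all cells had been treated with thymidine, which blocks DNA replication. The interphase cells were taken after 24 h in 2 mM thymidine. The mitotic cells had the same 24 h treatment, then 6 h of release and an overnight incubation with STLC, an inhibitor of the kinesin Eg5 that arrests cells with monopolar spindles. From each phase came RNA precipitated with an antibody to hnRNP U (also called SAF-A), an abundant nuclear RNA-binding protein, and RNA without immunoprecipitation (IP). The design therefore had 4 groups of 2 libraries, which are interphase without IP, interphase IP, mitosis without IP and mitotic IP. The study asked which RNAs are enriched with hnRNP U. No IP with a control antibody was analysed here, so RNA held by hnRNP U and RNA carried over on the beads cannot be told apart. The labels do not say that replicates came from separate cultures, so p-values measure the spread between these libraries, which may be technical.

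Levels are FPKM (fragments divided by transcript length and by the fragments mapped in the library), and differences are log2 fold changes of FPKM + 1 with limma's standard error (SE). A gene is called higher or lower where the limma p, adjusted by the Benjamini-Hochberg method over all 13471 genes, is below 0.05. Adding 1 to each value makes the changes of the lowest genes look smaller. Replicates correlated across all genes at r = 0.989 to 0.995. The 10 highest genes of a library took 58.4% to 63% of its FPKM sum without IP and 12.4% to 20.6% in the IP, and the part of this shift in the effects of the IP was not tested. Of 7 mitotic genes used as a check of phase, 7 were higher in mitosis without IP (log2 fold changes 1.18 to 2.6), and of 6 S-phase genes 5 were lower and 0 higher. Of 11 markers of retinal pigment epithelium, 5 were in the table. The melanosome gene PMEL was near 0, at 0.0320 to 0.144 FPKM in the 8 libraries, while the transcription factor genes MITF (7.06 to 33.2 FPKM) and OTX2 (3.33 to 22.2 FPKM) were detected in each. So were the keratin genes KRT8 (19.0 to 58.9 FPKM) and KRT18 (18.5 to 79.2 FPKM). RPE65, BEST1, RLBP1, TYR, TYRP1 and SERPINF1 had no entry in the table, so their levels could not be read here. The table held no FPKM value of 0 in the 8 libraries.

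Without IP, 9 of the 10 genes were higher in mitosis than in interphase and 0 were lower. Over all genes, 26.2% were called higher and 25.5% lower in this comparison. The median log2 fold change was 2.13 over the 10 genes and -0.002 over all genes. In RNA from a whole culture, more transcript per cell and more cells holding the transcript cannot be told apart.

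CENPE (chromosome 4, 103105806 to 103198409 on hg38), the kinesin that moves chromosomes toward the metaphase plate, was at 4.37 and 2.48 FPKM in interphase replicates 1 and 2 and at 22.9 and 19.2 FPKM in mitosis. Its log2 fold change was 2.35 (SE 0.21, limma adjusted p = 6.47e-05). CENPF (chromosome 1, 214603189 to 214664571), a large coiled-coil protein of the corona that also binds the nuclear envelope, was at 14.4 and 8.30 FPKM in interphase and at 55.3 and 54.1 FPKM in mitosis, a log2 fold change of 2.22 (SE 0.23, adjusted p = 0.000126). For both genes replicate 1 of interphase without IP lay well above replicate 2, yet both interphase libraries were below both mitotic ones. KNTC1 (chromosome 12, 122527262 to 122626400) had replicates closer together, at 4.82 and 5.14 FPKM in interphase and 20.2 and 24.4 FPKM in mitosis. It rose by 1.96 on the log2 scale (SE 0.17, adjusted p = 4.75e-05).

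The 3 checkpoint kinase genes had the 3 largest changes of the 10. TTK (chromosome 6, 80004605 to 80042527) was at 11.5 and 10.1 FPKM in interphase and 77.0 and 83.5 FPKM in mitosis, with a log2 fold change of 2.78 (SE 0.11, adjusted p = 7.87e-07). BUB1B (chromosome 15, 40161009 to 40277487), the BUBR1 pseudokinase, was at 14.2 and 10.8 FPKM and then at 84.6 and 83.6 FPKM, a log2 fold change of 2.67 (SE 0.14, adjusted p = 3.28e-06). BUB1 (chromosome 2, 110637698 to 110678107) was at 11.1 and 11.5 FPKM and then at 73.3 and 80.6 FPKM, a log2 fold change of 2.66 (SE 0.11, adjusted p = 1.07e-06). In each of the 3 genes the lowest mitotic library was several times the highest interphase library. The interval given for BUB1B runs 56351 bases past the annotated end of the gene and covers PAK6 (chromosome 15, 40238759 to 40277487), which has no entry of its own in the table, so fragments of PAK6 may be included in its values. MAD2L1 (chromosome 4, 120059424 to 120066858) was the exception, at 46.0 and 49.8 FPKM in interphase and 55.7 and 70.4 FPKM in mitosis. Its groups did not overlap, but the log2 fold change of 0.38 (95% confidence interval 0.05 to 0.71) missed the threshold at an adjusted p of 0.0527. That call depended on the fit. The adjusted p was 0.0484 among genes with a mean of at least 1 FPKM and 0.0148 with the replicate number as a block. It was 0.0443 with only the libraries of the compared groups. Without replicate 1 of mitosis without IP the log2 fold change was 0.55. MAD2L1 was the gene of the 10 with the highest interphase level without IP.

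In the NDC80 complex, NUF2 (chromosome 1, 163321933 to 163355763) rose from 20.7 and 14.9 FPKM to 66.2 and 86.4 FPKM, a log2 fold change of 2.05 (SE 0.18, adjusted p = 5.08e-05). NDC80 itself (chromosome 18, 2571511 to 2616635), the partner of NUF2 at the microtubule-binding end, rose from 15.4 and 10.6 FPKM to 40.2 and 49.995 FPKM, a log2 fold change of 1.73 (SE 0.28, adjusted p = 0.00116). The change of SPC25 (chromosome 2, 168870891 to 168890434), which sits at the end that docks on the kinetochore, was the smallest of the 9 calls. Its values of 11.0 and 9.005 FPKM in interphase were followed by 21.8 and 24.9 FPKM in mitosis, a log2 fold change of 1.15 (SE 0.24, adjusted p = 0.00383).

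**Figure D1:**
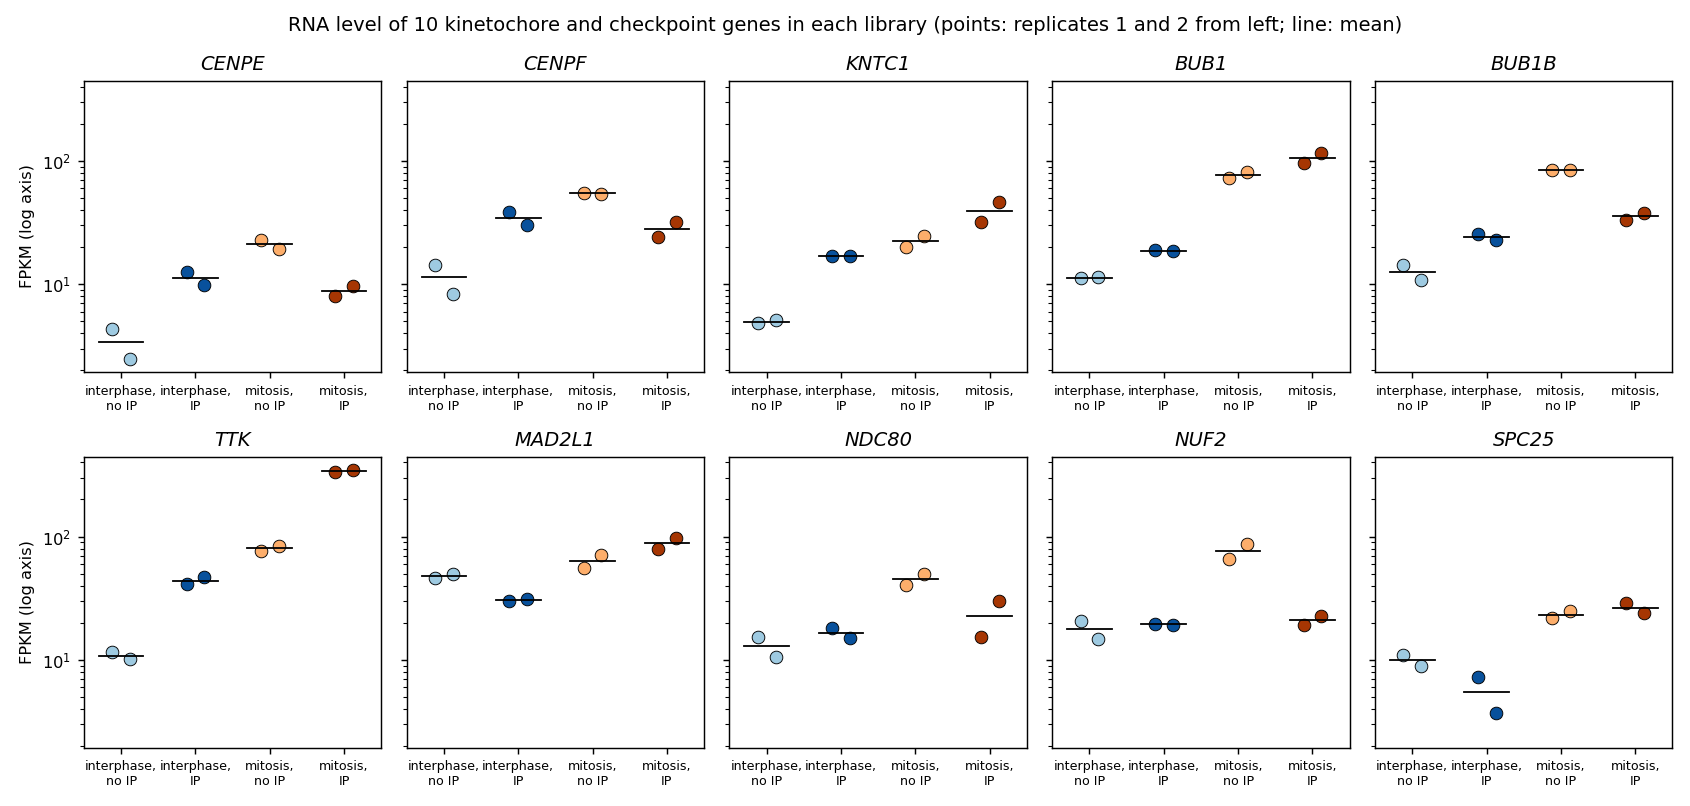
FPKM of each of the 10 genes (log axis) in the 4 groups; each point is a library, with replicate 1 at the left, and the line is the mean of the 2 replicates. Without IP the mitotic points lie above the interphase points for all 10 genes, and in the mitotic IP TTK reaches 334 and 347 FPKM while CENPE, CENPF, BUB1B, NDC80 and NUF2 lie below their mitotic level without IP.

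Genes expressed late in the cell cycle often carry a short promoter element, the cell cycle genes homology region, read by the DREAM and B-MYB complexes. Because 9 of the 10 genes rose together in mitosis, its core letters were searched on both strands of the RefSeq promoter windows on GRCh38.p14, which run from 250 bases before to 50 bases after the annotated start. The letters searched were TTTGAA and TTCGAA, the second of which reads the same on both strands. A window was found for 8 of the 10 genes, and KNTC1 and TTK had none. The letters stood in 7 of the 8, against 16.4% of all 34943 windows (15.2% with TTTGAA and 1.45% with TTCGAA), and CENPE was the gene without them. A match is a description of the letters and not a site shown to be used. The stretch nearest the start is shown for each of the 7 genes, on the strand of the gene, with the matched letters in capitals:
CENPF (chr1:214603223-214603244, plus strand): ggctgcgggcagTTTGAAttag
BUB1 (chr2:110678045-110678074, minus strand): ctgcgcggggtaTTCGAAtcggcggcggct
BUB1B (chr15:40161034-40161063, plus strand): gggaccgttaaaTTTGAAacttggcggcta
MAD2L1 (chr4:120066807-120066836, minus strand): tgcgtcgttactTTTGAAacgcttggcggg
NDC80 (chr18:2571545-2571574, plus strand): gcggagaatTTCAAATTCGAAcggctttgg
NUF2 (chr1:163321958-163321987, plus strand): ggaggcggcaagTTTGAAaagtgatgacgg
SPC25 (chr2:168890416-168890445, minus strand): aagtgcactaggTTTGAAatcggaaagttg
The capitals of NDC80 hold 2 matches side by side, TTTGAA read on the other strand followed by TTCGAA. Counted from the annotated start as position 1, the first capital lies at 41 in CENPF, 2 in BUB1, 25 in MAD2L1 and 17 in NUF2, within the transcribed part. In BUB1B it lies at -23, and in NDC80 and SPC25 at -3. SPC25 had a further match at -247, not shown. MAD2L1, whose change missed the threshold, carried the letters, and CENPE, which rose, did not.

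In interphase, the IP held 6 of the 10 genes above their level without IP and 2 below it. Over all genes 37.6% were called higher and 37% lower, so that being called was common. The median log2 fold change was 0.79 over the 10 genes and 0.02 over all genes. The 3 corona genes and the 3 checkpoint kinase genes were higher, MAD2L1 and SPC25 were lower, and NDC80 and NUF2 were not called.

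CENPE stood at 12.5 and 9.81 FPKM in the interphase IP, a log2 fold change of 1.48 over interphase without IP (SE 0.21, adjusted p = 0.000184). CENPF stood at 38.3 and 30.4 FPKM, a log2 fold change of 1.55 (SE 0.23, adjusted p = 0.000243). KNTC1, at 17.01 and 16.9 FPKM, gave 1.59 (SE 0.17, adjusted p = 2.51e-05). For these 3 genes both IP libraries exceeded both libraries without IP, and their log2 fold changes differed by less than any of their standard errors.

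Among the kinase genes, TTK had the largest effect of the 10, with 41.1 and 46.6 FPKM in the interphase IP and a log2 fold change of 1.93 (SE 0.11, adjusted p = 1.09e-06). In the authors' deposited table its ratio of IP to total RNA was 3.56 in replicate 1 and 4.63 in replicate 2. BUB1B stood at 25.5 and 22.7 FPKM (log2 fold change 0.91, SE 0.14, adjusted p = 0.000254) and BUB1 at 18.9 and 18.5 FPKM (log2 fold change 0.68, SE 0.11, adjusted p = 0.000466). MAD2L1 went the other way, to 30.3 and 31.4 FPKM in the IP. Its log2 fold change was -0.62 (SE 0.14, adjusted p = 0.00384), with both IP libraries below both libraries without IP.

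The NDC80 complex showed no gene called higher. NDC80 was at 18.3 and 15.0 FPKM in the interphase IP, a range that overlapped the one without IP, and its log2 fold change was 0.35 (95% confidence interval -0.29 to 0.99, adjusted p = 0.288). NUF2, at 19.7 and 19.3 FPKM, lay between its 2 values without IP, with a log2 fold change of 0.14 (95% confidence interval -0.26 to 0.54, adjusted p = 0.484). SPC25 was at 7.24 and 3.69 FPKM, below both libraries without IP, with a log2 fold change of -0.82 (SE 0.24, adjusted p = 0.0115). The call for SPC25 was lost without interphase IP replicate 2 (-0.41, adjusted p = 0.0611) or without replicate 1 of interphase without IP (-0.69, adjusted p = 0.0719).

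In mitosis, 4 of the 10 genes were higher in the IP and 5 were lower. Over all genes 32.8% were called higher and 31.7% lower, so the shares of the 10 genes were not far from those of the table. The median log2 fold change was -0.39 over the 10 genes and 0.01 over all genes. The genes higher in the IP were TTK, KNTC1, BUB1 and MAD2L1, those lower were NUF2, BUB1B, CENPE, NDC80 and CENPF, and SPC25 was not called.

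TTK reached 334 and 347 FPKM in the mitotic IP against 77.0 and 83.5 FPKM without IP. Its log2 fold change was 2.07 (SE 0.11, adjusted p = 6.4e-06), a 4.21-fold difference on the scale of FPKM + 1, and the authors' deposited table gave ratios of 4.34 and 4.16. TTK lay at percentile 99.1 of all genes in the mitotic IP and at percentile 94.2 in mitosis without IP. In interphase without IP it lay at percentile 61.7. BUB1 was at 96.7 and 116 FPKM in the mitotic IP, above both libraries without IP, with a log2 fold change of 0.46 (SE 0.11, adjusted p = 0.00609). MAD2L1, lower in the interphase IP, was at 78.7 and 98.1 FPKM in the mitotic IP, with a log2 fold change of 0.48 (SE 0.14, adjusted p = 0.0165). The MAD2L1 call was lost (0.32 in either case) without mitotic IP replicate 2 (adjusted p = 0.112) or without replicate 1 of mitosis without IP (adjusted p = 0.132). BUB1B was the checkpoint gene that went down, to 33.3 and 37.9 FPKM from 84.6 and 83.6 FPKM, with a log2 fold change of -1.22 (SE 0.14, adjusted p = 6.85e-05).

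The corona genes separated in mitosis. KNTC1 was higher in the IP, at 32.2 and 46.4 FPKM (log2 fold change 0.77, SE 0.17, adjusted p = 0.00298). CENPE was lower, at 8.06 and 9.63 FPKM (log2 fold change -1.16, SE 0.21, adjusted p = 0.00117), and so was CENPF, at 24.2 and 32.1 FPKM (log2 fold change -0.95, SE 0.23, adjusted p = 0.00595). In each of the 3 genes the IP and no-IP libraries did not overlap.

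Of the NDC80 complex, NUF2 had the largest fall of the 10, to 19.2 and 22.9 FPKM, with a log2 fold change of -1.8 (SE 0.18, adjusted p = 3.5e-05). The authors' deposited table gave NUF2 ratios of 0.290 and 0.265 in mitosis. NDC80 was at 15.4 and 29.8 FPKM in the mitotic IP, so that the ratio between its mitotic IP replicates was the largest of the 10 genes. Its log2 fold change was -1.03 (SE 0.28, adjusted p = 0.0109), and the call was lost without mitotic IP replicate 1 (-0.57, adjusted p = 0.0601) or without replicate 2 of mitosis without IP (-0.87, adjusted p = 0.063). SPC25, at 28.7 and 23.9 FPKM in the IP, overlapped its level without IP (log2 fold change 0.16, 95% confidence interval -0.38 to 0.70, adjusted p = 0.575). Replicate 2 exceeded replicate 1 in the mitotic IP for 9 of the 10 genes, SPC25 being the other, while over all genes replicate 1 was the higher in 52.0%. In mitosis without IP replicate 2 was the higher for 7 of the 10. Replicate 1 was the higher for 7 in interphase without IP and for 8 in the interphase IP. Over all genes replicate 1 was the higher in 52.9%, 54.2% and 48.3% of these 3 groups in turn.

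**Figure D2:**
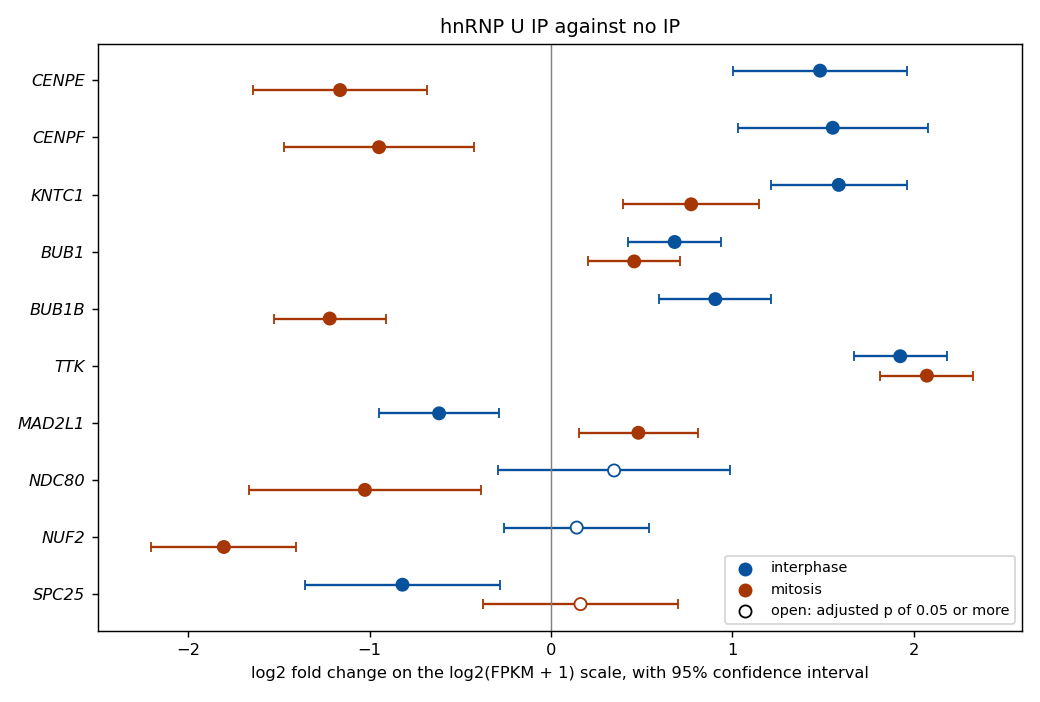
Log2 fold change of the hnRNP U IP against no IP for each of the 10 genes in interphase and in mitosis, with 95% confidence intervals; open points have an adjusted p of 0.05 or more. CENPE, CENPF and BUB1B lie above 0 in interphase and below 0 in mitosis, MAD2L1 does the reverse, and TTK lies near 2 in both phases.

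The difference between these effects was tested as an interaction, the effect of the IP in mitosis minus that in interphase. It was called below 0 for 6 of the 10 genes and above 0 for 2, where 19.9% of all genes were called below 0 and 27.2% above. The median was -1.09 over the 10 genes and 0.07 over all genes. CENPE (-2.65, SE 0.30, adjusted p = 0.00022), CENPF (-2.5, SE 0.33, adjusted p = 0.00043) and BUB1B (-2.13, SE 0.19, adjusted p = 9.23e-05) turned from higher with the IP in interphase to lower with it in mitosis. With length and GC trends removed, the interphase effect was no longer called for CENPE (0.06, adjusted p = 0.809) or CENPF (0.37, adjusted p = 0.203). NUF2 (-1.95, SE 0.25, adjusted p = 0.000384) and NDC80 (-1.37, SE 0.40, adjusted p = 0.0206) went from no call to lower. KNTC1 was higher in both phases with a smaller effect in mitosis (-0.81, SE 0.23, adjusted p = 0.0198). The difference was positive for MAD2L1 (1.10, SE 0.20, adjusted p = 0.00251) and SPC25 (0.98, SE 0.34, adjusted p = 0.0395). No difference was called for BUB1 (-0.22, 95% confidence interval -0.58 to 0.14, adjusted p = 0.281) or TTK (0.15, 95% confidence interval -0.22 to 0.51, adjusted p = 0.487). The intervals of BUB1 and TTK leave room for a difference of up to 0.58 in size. The calls for KNTC1, NDC80 and SPC25 were each lost when single libraries were left out, SPC25 in 6 of 8 cases, KNTC1 in 4 and NDC80 in 3.

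The same libraries can be read across phases. Within the IP, 6 of the 10 genes were higher in mitosis and 0 were lower, where 35.8% of all genes were called higher and 25.6% lower. TTK (log2 fold change 2.93, SE 0.11), BUB1 (2.44, SE 0.11), SPC25 (2.13, SE 0.24), MAD2L1 (1.48, SE 0.14) and KNTC1 (1.14, SE 0.17) had adjusted p-values of 0.000349 or less. BUB1B rose by 0.54 (SE 0.14, adjusted p = 0.00736). The other four were not called, CENPE at -0.30 (95% confidence interval -0.78 to 0.18), CENPF at -0.28 (-0.81 to 0.24), NUF2 at 0.10 (-0.30 to 0.50) and NDC80 at 0.36 (-0.28 to 1.00). These 4 genes rose in mitosis without IP by log2 fold changes of 1.73 to 2.35, so their levels in the IP followed the phase less than their levels without IP, as the interaction above states. This comparison shares its libraries with those of the IP effect and is not independent of them. The call for NDC80 turned on a single library, with 0.81 (adjusted p = 0.0171) without mitotic IP replicate 1 and -0.10 (adjusted p = 0.742) without replicate 2.

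**Figure D3:**
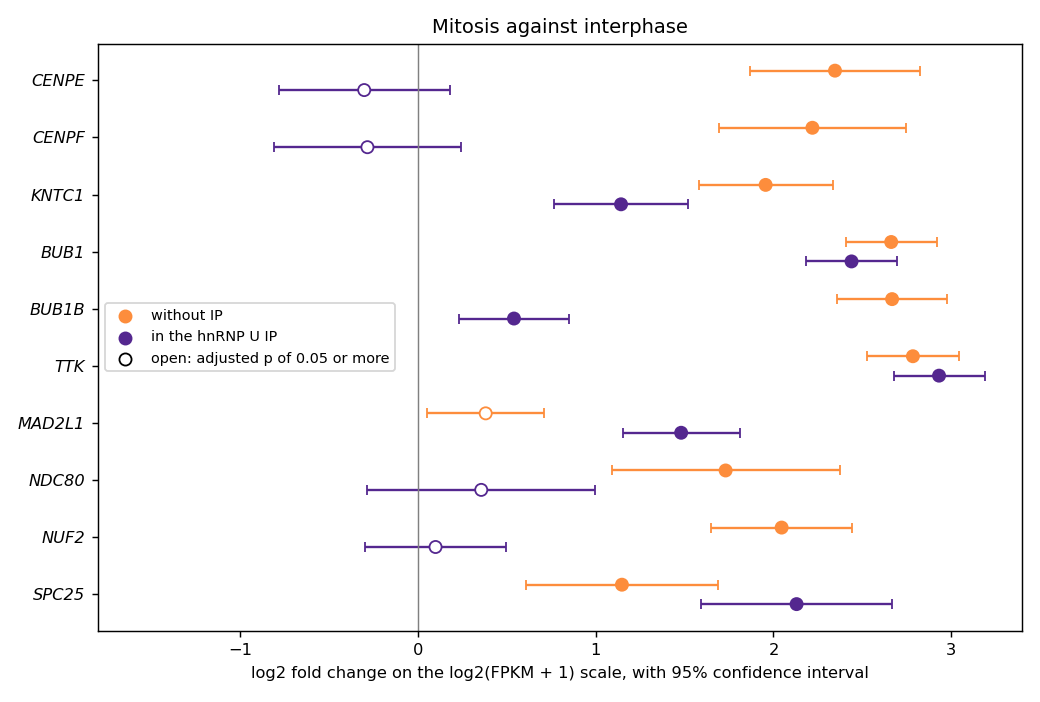
Log2 fold change of mitosis against interphase for each of the 10 genes, without IP and in the hnRNP U IP, with 95% confidence intervals; open points have an adjusted p of 0.05 or more. Without IP the intervals of all 10 genes lie above 0, and in the IP those of CENPE, CENPF, NDC80 and NUF2 include 0.

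FPKM is scaled to length, so levels can be ordered between genes within a group. In interphase without IP, MAD2L1 led at 47.9 ± 2.71 FPKM (mean ± SD, n = 2), and NUF2, NDC80, BUB1B, CENPF, BUB1, TTK and SPC25 followed between 17.8 and 10.01 FPKM, the library values of each neighbour overlapping those of the next. KNTC1 (4.98 ± 0.222 FPKM) and CENPE (3.43 ± 1.33 FPKM) came last. In mitosis without IP, BUB1B (84.1 ± 0.711 FPKM), TTK (80.3 ± 4.60 FPKM), BUB1 (77.0 ± 5.21 FPKM) and NUF2 (76.3 ± 14.2 FPKM) led. Of these neighbours only BUB1B and TTK had library values that did not overlap (83.6 and 84.6 FPKM against 77.0 and 83.5 FPKM). The nearest of these lay close together, at 83.58 FPKM for BUB1B and 83.53 FPKM for TTK. The BUB1B values may also include fragments of PAK6, so the order of BUB1B and TTK is not settled. MAD2L1 took the fifth place at 63.1 ± 10.4 FPKM, and CENPE stayed last at 21.1 ± 2.6 FPKM. TTK, the seventh in interphase without IP, was first in both IP groups, at 43.9 ± 3.90 FPKM in interphase and 341 ± 8.94 FPKM in mitosis. In the mitotic IP the next genes were BUB1 at 106 ± 13.8 FPKM and MAD2L1 at 88.4 ± 13.7 FPKM, which overlapped. CENPE was again last there, at 8.85 ± 1.11 FPKM.

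Over all genes the effect of the IP moved with transcript length and base composition, taken from the longest GENCODE transcript of 13122 matched genes. Spearman's rho across genes, which are not independent replicates, was 0.531 with length and -0.706 with GC content in interphase, and 0.282 and -0.559 in mitosis. The 10 genes were poorer in GC than most. They ran from 35.3% (CENPE) to 43.2% (BUB1B) against a median of 47.6% over all genes. Their lengths spanned most of the range, from 1354 nt (SPC25) to 10307 nt (CENPF), with CENPE at 8612 nt and KNTC1 at 6975 nt, against a median of 3616 nt. Within the 10 genes rho in interphase was 0.65 with length and 0.406 with GC, a description of few points. With smooth trends in length and GC removed from each library, the interphase calls went from 6 higher and 2 lower to 3 higher and 1 lower. Over the 13122 matched genes, 4423 were then called higher and 3660 lower. TTK (1.24, adjusted p = 1.48e-05), KNTC1 (0.51, adjusted p = 0.0226) and BUB1B (0.40, adjusted p = 0.0273) remained higher, while CENPE, CENPF, BUB1 (0.15) and SPC25 (-0.65) were no longer called. In mitosis all 5 genes called lower remained so, from -1.40 for NDC80 to -2.21 for NUF2, and of the genes called higher only TTK did (1.62, adjusted p = 8.9e-06). Over the matched genes, 4383 were called higher and 3786 lower there, and the interaction was called above 0 for 2917 and below 0 for 2676. The interaction kept its call for CENPE (-2.0), CENPF (-1.89), BUB1B (-1.95), NUF2 (-2.16), NDC80 (-1.54) and MAD2L1 (1.55), and lost it for KNTC1 (-0.29) and SPC25 (0.58). For MAD2L1 the longest transcript, of 5468 nt, reaches outside the interval given for the gene, where the longest coding transcript is 1277 nt, so its value with the trends removed is uncertain. For TTK the trends were taken at 3725 nt and 40.8% GC, while the longest coding transcript in its interval has 3010 nt and 36.6% GC. Its values with the trends removed are uncertain to that extent.

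**Figure D4:**
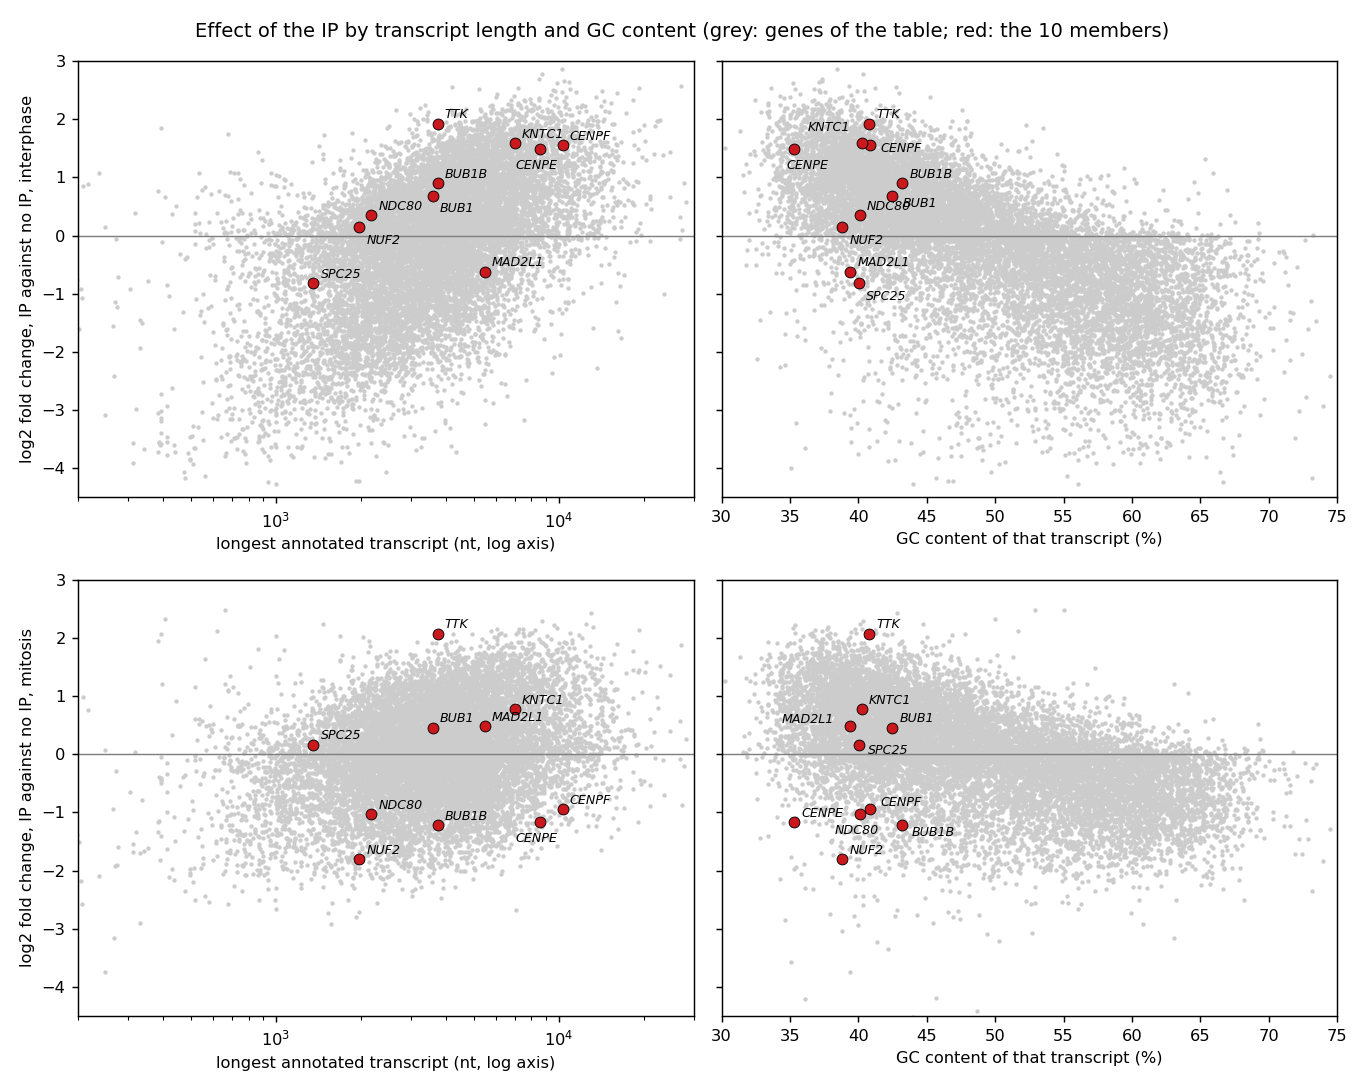
Log2 fold change of the IP against no IP in interphase (top) and mitosis (bottom), by the length of the longest annotated transcript (left, log axis) and its GC content (right); grey points are genes of the table that fall within the axes and red points are the 10 genes. In interphase SPC25 at 1354 nt lies lowest and the long CENPE, CENPF and KNTC1 lie near 1.5, while in mitosis CENPE and CENPF lie below 0 at the same lengths and TTK lies near the upper edge of the cloud in both phases.

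The rest of the kinetochore was read from 5 lists with 42 further genes. Without IP, 24 of the 42 were higher in mitosis and 2 lower, where 26.2% of all genes were called higher and 25.5% lower. Their median log2 fold change was 0.58, against 2.13 for the 10 genes. Under the interphase IP 18 were higher and 15 lower (median 0.12), and under the mitotic IP 14 were higher and 13 lower (median -0.08), shares near those of all genes (37.6% and 37% in interphase, 32.8% and 31.7% in mitosis). The interaction was called positive for 12 and negative for 11, where 27.2% of all genes were called positive and 19.9% negative. Its median was 0.16, against -1.09 for the 10 genes. Within the IP 27 were higher in mitosis and 4 lower, where 35.8% of all genes were called higher and 25.6% lower. The counts per list below are to be read beside the same shares of all genes.

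Of 18 genes of the inner kinetochore and centromere, 7 were higher and 1 lower in mitosis without IP, led by CENPA, the centromeric histone H3 variant (log2 fold change 1.90, adjusted p = 5.09e-06), and CENPI (1.69). Under the IP 6 were higher and 7 lower in interphase, and 4 higher and 5 lower in mitosis. The largest falls in interphase were those of the CENPX gene, listed as STRA13 (-3.18), and CENPM (-2.68). In mitosis they were those of STRA13 (-1.68) and CENPB (-1.40), which binds the CENP-B box of alpha satellite DNA. Among 7 other genes of the outer kinetochore network that joins KNL1, MIS12 and NDC80 complexes, 3 were higher and 1 lower in mitosis without IP. KNL1, listed as CASC5, rose by 2.36 there and was 2.03 higher in the interphase IP (adjusted p = 4.94e-06), where PMF1 of the MIS12 complex was at -2.27. In the mitotic IP 3 of the 7 were higher and 1 lower, with MIS12 at 1.06 and SPC24, the direct partner of SPC25, at -0.84. The SPC24 call was lost with length and GC trends removed (-0.49), without replicate 1 of mitosis without IP (-0.76) and without mitotic IP replicate 2 (-0.61). The change of ZWINT without IP was 0.77.

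Of 10 further genes of the checkpoint, the corona and the protection of cohesion, 8 were higher and 0 lower in mitosis without IP, led by the shugoshin genes listed as SGOL2 (2.25) and SGOL1 (1.98). In the interphase IP 5 were higher and 3 lower, with SGOL2 at 1.67 and MAD2L1BP, whose product p31comet dismantles checkpoint complexes, at -1.53. In the mitotic IP 3 were higher and 5 lower, and the largest were SPDL1 (-1.42), an adaptor that recruits dynein to the corona, and MAD1L1 (-1.03), the partner of MAD2L1, whose call was lost with the trends removed (-0.40). The 3 genes of the SKA complex, which works with the NDC80 complex on microtubules, were called higher with the IP in each phase, SKA1 at 0.97 and 0.36 and SKA3 at 0.72 and 0.47. In mitosis both calls were lost with length and GC trends removed (0.09 for each), and that of SKA1 also with quantile normalization (0.19), without replicate 1 of mitosis without IP (0.32) and without mitotic IP replicate 2 (0.31). Without IP, 2 of the 3 rose in mitosis, SKA1 by 1.34 and SKA3 by 1.10. All 4 genes of CENP-A deposition were higher in mitosis without IP, with HJURP, the chaperone of CENP-A, at 2.07. In this list OIP5 was at -0.72 with the IP in interphase (0.03 with the trends removed) and at 0.54 in mitosis.

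**Figure D5:**
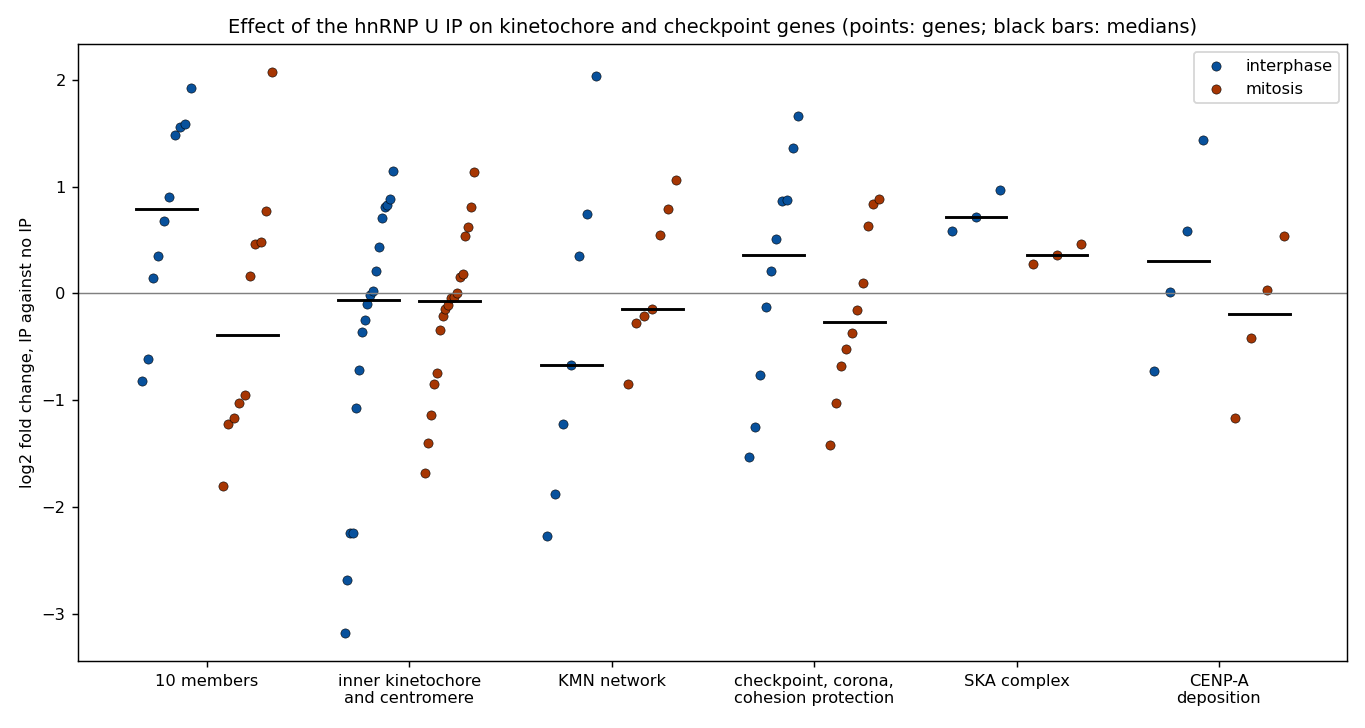
Log2 fold change of the IP against no IP for the 10 genes and for 5 lists of other kinetochore genes, in interphase and mitosis; each point is a gene and each bar the median of the list. The median of the 10 genes goes from 0.79 in interphase to -0.39 in mitosis, and the 3 SKA genes lie above 0 in both phases.

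The 10 genes did not share a single profile. Likeness was measured as the root mean square (RMS) difference of log2(FPKM + 1) over the 8 libraries, after each gene was centred on its own mean. CENPE and CENPF were the closest pair at 0.11, followed by NDC80 and NUF2 at 0.34 and by BUB1B with CENPE at 0.37. MAD2L1 and SPC25 were each other's nearest at 0.47, and KNTC1 and BUB1 at 0.61. TTK stood farthest, at 0.74 from its nearest member BUB1 and 1.76 from NUF2. Against the median profile of the 10 genes, which is lowest in interphase without IP and highest in mitosis without IP, the 10 nearest other genes of the table were HJURP (0.16), TTF2 (0.18), KIF11 (0.23), ESPL1 (0.25), MICAL3 (0.26), NAV2 (0.26), SCLT1 (0.28), SGK494 (0.28), SOGA1 (0.29) and ANKRD36 (0.29). HJURP, for example, was at 15.8 FPKM in interphase without IP, 24.2 FPKM with it, 69.4 FPKM in mitosis without IP and 51.7 FPKM in the mitotic IP. SGK494 and ANKRD36 were below 1 FPKM in both interphase groups, where adding 1 flattens a profile.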

How the data were processed

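RNA was measured by directional RNA-seq of rRNA-depleted RNA in 8 libraries from 4 groups. The deposited gene table on hg38 holds FPKM made by the authors, per the file headers, 1 column for each library. It also holds the authors' ratios, each an FPKM of a library divided by that of another library with its number, per the file headers. The submitters' processing notes name TopHat and StringTie; their versions, settings and the treatment of shared reads are not given in the sources used here. The lncRNA table was not used, since it pairs its identifiers with no gene names.

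The fit was limma 3.58.1 in R 4.3.3 on log2(FPKM + 1), run with lmFit and a trended eBayes; 4 group coefficients were estimated from 8 libraries, which leaves 4 residual degrees of freedom, and neither a filter nor a block was used. It was tested on simulated data. Benjamini-Hochberg adjustment ran over the 13471 genes of a comparison. Genes were matched to GENCODE release 29 for length and GC content by symbol (12681) or older symbol (441), 97.4% in all. The members and lists were chosen with earlier results of these data known. All 10 members are named. From each other list the 2 largest calls are named for the IP effect in each phase and for mitosis against interphase without IP, with the 10 genes nearest to the median profile; a gene that this rule names is not reported here. Alternatives were a pseudocount of 0.1, a filter at a mean of 1 FPKM, quantile normalization, median centring, removal of length and GC trends (splines with 4 degrees of freedom), a replicate block, a fit of the compared libraries alone, and leaving out each library.

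Fragment totals are not given. The most common ratio of low values between replicates 1 and 2, over 6735 low genes, gave the depth of replicate 2 relative to replicate 1 as 0.839 in interphase without IP, 0.867 in the interphase IP and 1.26 in mitosis without IP. In the mitotic IP the ratios 0.93 and 1.86 were about as common (115 and 103 genes), so the relative depth there is not settled.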

Additional observations from a re-analysis of the deposited data

Results flagged for a closer look

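The effect of the IP differed between mitosis and interphase by the interaction test for 8 of the 10 genes, where 27.2% of all genes were called for a positive and 19.9% for a negative difference. The difference of log2 fold changes, mitosis minus interphase, was -2.65 for CENPE, -2.5 for CENPF, -2.13 for BUB1B, -1.95 for NUF2, -1.37 for NDC80 and -0.81 for KNTC1. It was 1.1 for MAD2L1 and 0.98 for SPC25. Both replicate pairs gave the same sign for each of these 8 genes. The calls of SPC25, KNTC1 and NDC80 were lost in 6, 4 and 3 of the 8 fits that leave out a library.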

How the results depend on the processing

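The fold changes kept their direction for the 10 genes with a pseudocount of 0.1, the filter, the fit of the compared libraries alone and the replicate block. With length and GC trends removed, the genes called in the interphase IP numbered 3 higher and 1 lower, and those called higher in the mitotic IP numbered 1. Of the 13122 matched genes, 4423, 3660 and 4383 were so called in that setting. That setting reversed NUF2 (-0.05) and OIP5 (0.03) in the interphase IP, MAD2L1 (-0.08) and SPC25 (-0.07) in the mitotic IP, and CENPE (0.02) and CENPF (0.03) across phases within the IP. It also called the interaction of TTK (0.38, adjusted p = 0.0499), left 8 of the other kinetochore genes higher in the mitotic IP in place of 14, and left 1 lower in mitosis without IP in place of 2. Quantile normalization left 2 genes called higher in the mitotic IP (BUB1 and MAD2L1 were each at 0.29) and 1 positive interaction, ended the call of BUB1B across phases within the IP (0.33) and reversed NUF2 there (-0.08), as did median centring (-0.01). Median centring moved the median of all genes by 0.125 in the interphase effect of the IP and by -0.109 across phases within the IP. Leaving out each library in turn gave 1 to 2 genes lower in the interphase IP and 1 to 2 positive interactions. The fold changes then ran from -0.08 to 0.37 for NUF2 in the interphase IP, and across phases within the IP from -0.10 to 0.81 for NDC80 and from -0.02 to 0.22 for NUF2. TTK kept its calls for the IP in both phases under each alternative run.

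The labels do not say whether same-numbered libraries share a preparation, and each comparison holds 2 such pairs. Deviations of same-numbered libraries from the group means correlated across genes at 0.0883 to 0.528, the highest between mitosis without IP and the mitotic IP. With the replicate number as a block, MAD2L1 was called higher in mitosis without IP (0.38, adjusted p = 0.0148), which made 10 of 10, and no other call of the 10 genes changed. MAD2L1 was also called in that comparison with the filter and with the compared libraries alone. Fragment totals are unknown, so no detection limit is given.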
